A study of Mus musculus with 12 samples.

Results

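The 9 genes described here are 7 zinc exporters of the Slc30 family (Slc30a1, Slc30a2, Slc30a4, Slc30a5, Slc30a6, Slc30a7 and Slc30a9) and the metallothionein genes Mt1 and Mt2. They were chosen by gene symbol from the tables of both days, and all 9 were present in both, among 14986 genes shared by the tables. They were also selected on a value: Slc30a2 nearly vanished in the mutant at P16. Differences between mutant and control at P16 are therefore given for these genes as a description, with no p-value and with nothing read from how many were called, and for Slc30a2 so are its changes with age.

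Dermal papilla (DP) cells of mouse dorsal skin were sorted for YFP in successive passes, switched on by the Cor-cre allele, and their RNA was sequenced in 12 libraries, 3 in each of 4 groups. The mutant, dMF1/2, carried Cor-cre/+; Fgfr1Flox/Flox; Fgfr2Flox/Flox, so that both receptors were deleted in cells in which the DP-specific Corin-cre knock-in is active after birth. The control was labelled wild type. By the study's methods control mice carried either Cor-cre/+ with 1 floxed copy of each receptor or both floxed alleles without cre, and the sort by YFP requires cre. Each genotype was sampled at postnatal day 14 (P14) and day 16 (P16), both in anagen, the growth phase of the hair follicle. By the study, each library is the DP of 1 mouse, so an n of 3 counts mice.

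Zinc exporters of the Slc30 (ZnT) family move zinc out of the cytosol, across the plasma membrane or into vesicles and organelles. Metallothioneins are small cysteine-rich proteins that bind zinc and copper, and their transcription rises with free zinc, glucocorticoids and oxidative stress. The sensor MTF-1, encoded by Mtf1, binds metal response elements in the promoters of metallothionein genes and of Slc30a1. Zinc supply matters for hair growth, and loss of hair is a known sign of zinc deficiency.

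The metal response element was searched as its core, TGCACNC or TGCGCNC, on both strands of the RefSeq promoter windows (build GRCm38.p6, 250 bases before and 50 after each transcription start), which were found for all 9 genes. Promoters are shown of Mt1 and Mt2 because they moved together, and of Slc30a1 because it is a known MTF-1 target. The promoter of Slc30a4 joins them because it was the exporter other than Slc30a2 that passed a test. They lie at chr8:94178839-94179138 on the plus strand (Mt1), chr8:94172368-94172667 on the plus strand (Mt2), chr1:191906531-191906830 on the plus strand (Slc30a1) and chr2:122702614-122702913 on the minus strand (Slc30a4). Each is written 5′ to 3′ along its gene, and capitals mark the bases that match the core in either orientation.
Mt1: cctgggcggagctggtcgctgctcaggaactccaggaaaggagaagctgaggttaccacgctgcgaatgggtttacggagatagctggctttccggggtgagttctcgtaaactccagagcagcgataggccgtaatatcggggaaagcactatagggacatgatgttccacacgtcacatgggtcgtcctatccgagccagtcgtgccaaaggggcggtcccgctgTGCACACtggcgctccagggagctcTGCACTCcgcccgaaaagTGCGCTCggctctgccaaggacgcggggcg
Mt2: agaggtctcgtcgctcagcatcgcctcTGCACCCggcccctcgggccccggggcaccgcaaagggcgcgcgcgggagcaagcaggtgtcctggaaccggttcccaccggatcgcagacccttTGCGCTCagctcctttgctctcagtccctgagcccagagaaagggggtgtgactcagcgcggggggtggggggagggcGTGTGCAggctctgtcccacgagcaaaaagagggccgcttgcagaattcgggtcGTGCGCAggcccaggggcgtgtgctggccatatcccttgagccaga
Slc30a1: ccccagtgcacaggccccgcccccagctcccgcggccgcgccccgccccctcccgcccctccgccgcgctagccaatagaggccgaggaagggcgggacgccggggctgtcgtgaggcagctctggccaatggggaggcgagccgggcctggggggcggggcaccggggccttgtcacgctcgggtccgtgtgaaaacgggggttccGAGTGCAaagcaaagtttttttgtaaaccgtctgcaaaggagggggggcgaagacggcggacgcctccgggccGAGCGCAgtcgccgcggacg
Slc30a4: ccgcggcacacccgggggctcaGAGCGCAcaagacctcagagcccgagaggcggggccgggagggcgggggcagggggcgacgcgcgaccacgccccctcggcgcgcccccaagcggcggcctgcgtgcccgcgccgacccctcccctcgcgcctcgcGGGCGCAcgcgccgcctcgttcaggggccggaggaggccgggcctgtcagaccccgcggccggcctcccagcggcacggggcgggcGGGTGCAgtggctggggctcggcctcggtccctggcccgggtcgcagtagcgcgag

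The window of Mt2 held 4 matches, those of Mt1 and Slc30a4 held 3 each, those of Slc30a1 and Slc30a2 held 2 each, and that of Slc30a5 held 1. No match was found in the windows of Slc30a6, Slc30a7 and Slc30a9. Of all 32851 windows, 25.7% held at least 1 match, 7.11% at least 2, 1.97% at least 3 and 0.517% at least 4. The 3 matches of Mt1 began 23 bases before and 2 and 20 bases after the RefSeq start, all in the forward orientation. Annotated starts differ between sources, for example 94172618 in the deposited gene model of Mt2 and 94172664 in GENCODE. Where transcription starts in these cells was not analysed, so a match after the RefSeq start need not be transcribed. The RefSeq start of Slc30a2 lies 285 bases inside the gene model of the deposited tables, so its window covers transcribed bases and is not printed. A match is a description of letters and not a binding site.

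Libraries held 19302358 to 29860750 reads on protein-coding genes. Values are normalized reads, that is reads per gene divided by the authors' size factor for the library, and an error is the SD over 3 libraries. The tables of both days were normalized separately, so levels of P14 and P16 printed side by side are each on their own scale, and changes with age were fitted on reads rescaled over all 12 libraries. All 7 listed DP markers were present in every library, with a summed level of 42883 to 66250 normalized reads at P14 and 18237 to 46049 at P16. Fgfr1 was lower in every dMF1/2 library than in every control library at both days, with a log2 fold change of -0.40 (SE 0.13) at P14 and -0.50 (SE 0.16) at P16. Fgfr2 differed by -0.11 (SE 0.14) and -0.01 (SE 0.13), and its groups overlapped. Reads were counted over whole genes, so those from exons outside the deleted part remain, and neither receptor passed the test at either day (limma, adjusted p = 0.50 and 0.97 at P14, 0.13 and 0.98 at P16), although Fgfr1 at P16 passed with the replicate number as a block (adjusted p = 0.011) and with DESeq2 (0.034). The P14 libraries numbered 1 of both genotypes stood apart in Col1a1, the main collagen of dermal cells, with 1269140 and 1767060 normalized reads against 4132280 to 4248890 in the other P14 libraries.

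Slc30a2 (chr4:134343181-134354484 of GRCm38, plus strand), the exporter best known for loading zinc into secretory vesicles, was the member that varied with age and genotype over the widest range. At P14 the control libraries held 26.1, 4.29 and 52.7 normalized reads of Slc30a2 and the dMF1/2 libraries 4.20, 3.20 and 5.55. Control replicate 2 lay among the mutant libraries and the other controls lay above them, so the groups overlapped. At P16 the control libraries held 353, 87.1 and 196 normalized reads of Slc30a2 and the dMF1/2 libraries 2.16, 1.87 and 1.06. Every P16 control library exceeded every other library of the series, and the P16 mutant libraries were the 3 lowest.

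**Figure D1:**
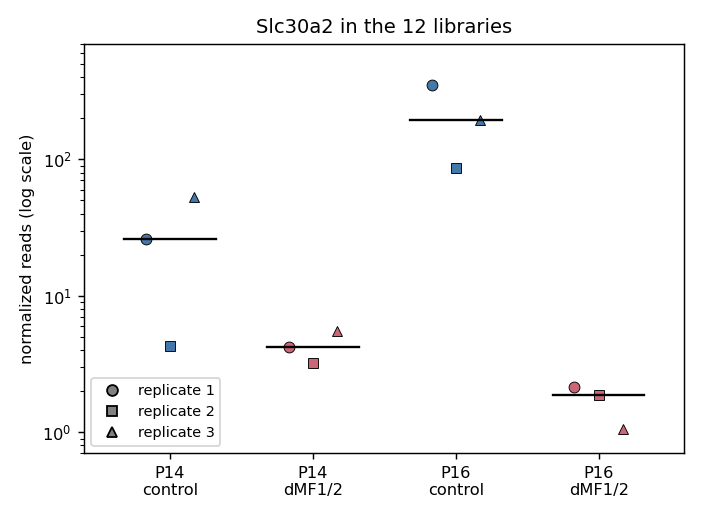
Normalized reads of Slc30a2 on a log axis in 3 libraries of each of 4 groups (points, shape by replicate number), with the group median as a bar. The P16 controls reach from 87.1 to 353 and the P16 dMF1/2 libraries from 1.06 to 2.16, while control replicate 2 at P14, at 4.29, lies among the P14 mutants.

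As reads, Slc30a2 was counted 681 times in the 3 P16 controls and 5 times in the 3 P16 mutants, 2, 2 and 1 per library. The ratio of control to mutant was 129, with an exact 95% interval of 55.2 to 400 that covers counting error only. On the log2 scale with a pseudocount of 1 the P16 difference of Slc30a2 was -6.11 (SE 0.49). At these counts the fitted value depends on the pseudocount, being -6.72 with 0.1 and -4.05 with 10. At P14 the same ratio was 6.61 (3.67 to 12.9, from 86 and 13 reads), and the fitted log2 fold change of -1.92 (SE 0.84) did not pass the test (limma, adjusted p = 0.69). It was -2.87 (adjusted p = 0.15) without control replicate 2, the low control, and -1.69 without control replicate 1, and without control replicate 3 its mean was under 10 and it was not tested. An exact two-sided permutation test of the P14 values of Slc30a2 gave p = 0.20, where 3 against 3 libraries cannot go below 0.10. That test did not use the replicate numbers, and at each number the P14 control was above the mutant. With the replicate number as a block, the P14 difference did not pass either (limma, adjusted p = 0.23).

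From P14 to P16, on a scale shared by the 12 libraries, the mean level of Slc30a2 went from 28 to 209 rescaled reads in control and from 4.37 to 1.66 in dMF1/2. The log2 change of Slc30a2 with age was 3.17 (SE 0.74) in control and -1.01 (SE 0.74) in dMF1/2. The difference between these changes, -4.19 (SE 1.04), is given without a test. Without P14 control replicate 2, the lowest control of that day, the change in control was 2.22.

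With each P16 library left out in turn, the Slc30a2 difference at P16 was -6.64 to -5.63 on the log2 scale, which describes the contrast that chose the gene and tests nothing. The P16 control with the highest Slc30a2, replicate 1 at 353 normalized reads, had the lowest Corin, the DP protease whose locus drives the cre, at 2776 normalized reads against 12352 and 7518 in the other controls. The same library had the lowest summed level of the 6 endothelial markers, 366 against 1129 and 1044. All 6 were detected in each group, and the summed level of the dMF1/2 libraries, at 534 to 825, lay within the control range. Kdr had the highest level of the 6 in P16 mutants, and it ran against the rest, with a mean of 203 normalized reads in P16 controls and 362 in P16 mutants. The means of the other 5 were higher in control, for example Pecam1 at 220 against 88.3, Tie1 at 73.5 against 25.4 and Cldn5 at 41.1 against 16.1, and the median log2 difference of the 6 was -0.97. None of the 6 passed the test at P16 with limma (adjusted p from 0.24 to 0.62), DESeq2 called 2 (beside 8.33% of all genes) and the replicate block 1 (beside 10.4%). With age in control 5 of the 6 were higher, like Slc30a2, with a median log2 change of 1.93, and Emcn passed (2.52, limma, adjusted p = 0.025). In that comparison DESeq2 and edgeR each called 4 of the 6 and the replicate block 2, beside 19.2%, 15.1% and 14.3% of all genes. Summed DP markers ran from 18237 to 35446 in P16 controls and from 33404 to 46049 in P16 mutants. The part of these markers in the result was not tested. In sorted pools, fewer cells that express a gene and less RNA per cell cannot be told apart.

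Of all genes with a mean of at least 10, those whose levels most resembled that of Slc30a2 over the 12 libraries were Pcdh15 (Pearson r = 0.969), Unc5b (0.968), Ptma (0.968), Vdr (0.963) and Cspg4 (0.961). Pcdh15 is a protocadherin, Unc5b a netrin receptor, Ptma prothymosin alpha, Vdr the vitamin D receptor and Cspg4 the NG2 proteoglycan. All were highest in P16 controls, for example Vdr with a mean of 618 rescaled reads against 298 in P14 controls and 191 and 176 in dMF1/2 at P14 and P16. These correlations describe the same libraries that chose Slc30a2 and carry no test.

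Mt1 (chr8:94179089-94180325) and Mt2 (chr8:94172618-94173567) lie next to each other on the plus strand of chromosome 8, with 5521 bases between them, and had nearly the same profile. At P14 the control libraries held 1336, 1654 and 2166 normalized reads of Mt1 and the dMF1/2 libraries 1489, 1590 and 1551. For Mt2 the P14 controls held 1140, 1741 and 2125 and the mutants 1460, 1534 and 1705. The controls of P14 spread on both sides of the mutants, and the differences of -0.13 (SE 0.17) for Mt1 and -0.05 (SE 0.22) for Mt2 on the log2 scale did not pass the test (limma, adjusted p = 0.98 and 1.0). With 2 SE on either side, the P14 difference lay between -0.46 and 0.21 for Mt1 and between -0.48 and 0.38 for Mt2.

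At P16 the control libraries held 2995, 1693 and 2174 normalized reads of Mt1 and the dMF1/2 libraries 1579, 1408 and 1307. For Mt2 they held 3274, 1635 and 2773 in control and 1576, 1588 and 1592 in dMF1/2. Every mutant library was below every control library for both genes, and control replicate 2 was the nearest to the mutants. The means were 2287 ± 658 against 1432 ± 138 for Mt1 and 2561 ± 840 against 1585 ± 8.28 for Mt2 (SD, n = 3 each). The log2 fold changes were -0.64 (SE 0.19) and -0.63 (SE 0.22), and they were -0.84 and -0.93 without control replicate 2 and -0.43 and -0.43 without control replicate 1.

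**Figure D2:**
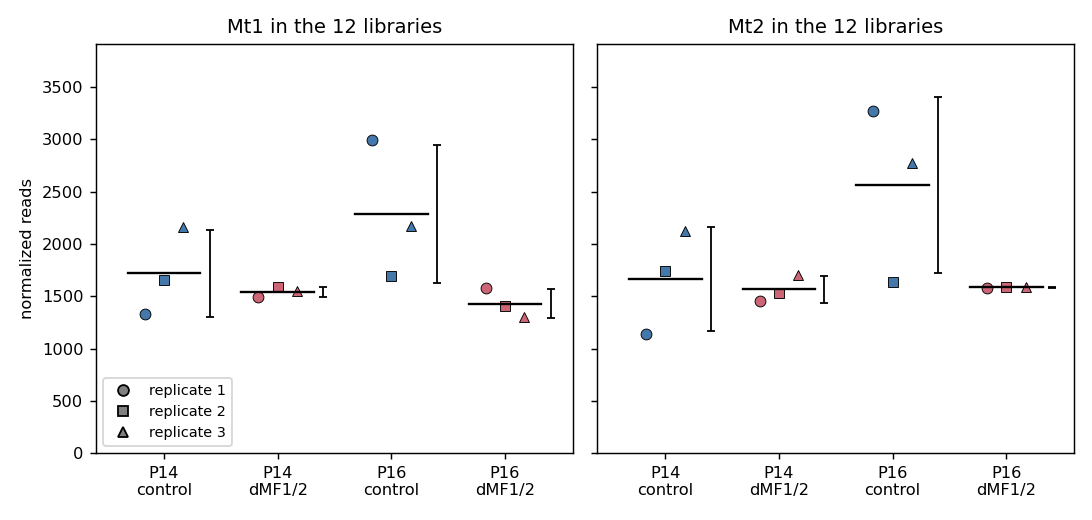
Normalized reads of Mt1 (left) and Mt2 (right) in 3 libraries of each group (points, shape by replicate number), with the group mean as a bar and the SD beside it; the axis starts at 0. The P16 dMF1/2 libraries, at 1307 to 1579 for Mt1 and 1576 to 1592 for Mt2, lie below all P16 controls, of which replicate 2 is closest.

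With age, Mt1 changed by 0.36 (SE 0.20) in control and -0.16 (SE 0.20) in dMF1/2, and Mt2 by 0.56 (SE 0.25) and -0.02 (SE 0.25). None of these 4 changes passed the test (limma, adjusted p = 0.24 and 0.70 for Mt1, 0.14 and 0.97 for Mt2). The change of Mt2 in control passed without P16 control replicate 2, at 0.86 with an adjusted p of 0.025. The interaction of genotype and day was -0.52 (SE 0.28) for Mt1 and -0.59 (SE 0.35) for Mt2, and neither passed (adjusted p = 1.0 for both). The genes most like Mt1 over the 12 libraries were Ywhah (Pearson r = 0.933), Mt2 (0.922), Mtss1l (0.918), Rgs3 (0.917) and Fnbp1 (0.914). Mt1 and Mt2 are close relatives, so the division of short reads between them is uncertain. Mt2 also overlaps an annotated antisense gene, and whether the counting used strand is not given in the sources used here.

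Mt3, the form known from brain, had a mean of 2.1 to 4.3 normalized reads per group, below the level tested, and Mt4 was not analysed here. Mtf1 itself stood at 403 to 520 normalized reads in all 12 libraries. Its log2 fold changes were 0.05 (SE 0.10) at P14, 0.04 (SE 0.10) at P16, 0.04 (SE 0.09) with age in control and 0.03 (SE 0.09) with age in dMF1/2, and each of them changed sign when some single library was left out.

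The 6 exporters other than Slc30a2 were all detected in every library, and none passed the test of genotype at P14. Slc30a1 is the exporter of the plasma membrane, and its gene overlaps an antisense gene, whose reads cannot be told apart where strand was not used. Its normalized reads were 481, 478 and 449 in P14 controls, 512, 446 and 447 in P14 mutants, 512, 478 and 539 in P16 controls and 562, 509 and 563 in P16 mutants. At each day the genotypes overlapped in range, and the P16 mutants were on average highest. The log2 difference of Slc30a1 between mutant and control was -0.01 (SE 0.10) at P14 and 0.10 (SE 0.09) at P16.

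Slc30a4 (chr2:122681233-122702663, minus strand), an exporter of endosomal and secretory vesicles, rose with age in control. Its normalized reads were 1294, 1467 and 1406 in P14 controls and 1831, 1711 and 1736 in P16 controls, with no overlap. In dMF1/2 the P14 libraries held 1469, 1447 and 1482 and the P16 libraries 1623, 1863 and 1669, also with no overlap. The log2 change of Slc30a4 was 0.30 (SE 0.08, limma, adjusted p = 0.026) in control and 0.18 (SE 0.08, adjusted p = 0.18) in dMF1/2, and the difference between these changes, -0.12 (SE 0.11), did not pass (adjusted p = 1.0). The call in control was lost without P14 control replicate 1 (0.25, adjusted p = 0.096), without P16 control replicate 1 (0.27, 0.097) or without P16 control replicate 3 (0.31, 0.064), and when only the 6 control libraries were fitted (0.30, 0.072). It was also lost without both P14 libraries numbered 1, which stood apart in Col1a1 (0.25, 0.090). Slc30a4 overlaps a gene of the opposite strand, whose reads cannot be told apart where strand was not used.

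Slc30a5 and Slc30a6 form a complex that loads zinc into enzymes of the secretory pathway, and Slc30a7 serves the same compartment. Slc30a5 ranged from 1124 to 1632 normalized reads over the 12 libraries, Slc30a6 from 190 to 295 and Slc30a7 from 1045 to 1990. All 3 were on average higher at P16 than at P14 in both genotypes. In control the log2 change with age was 0.21 (SE 0.12) for Slc30a5, 0.25 (SE 0.12) for Slc30a6 and 0.39 (SE 0.14) for Slc30a7, and in dMF1/2 0.20 (SE 0.12), 0.23 (SE 0.12) and 0.25 (SE 0.14). None passed (limma, adjusted p from 0.083 to 0.36). The lowest Slc30a7 value, 1045, belonged to P14 control replicate 1. Slc30a7 contains annotated pseudogenes and a miRNA on the opposite strand.

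Slc30a9, a mitochondrial zinc exporter, was the member whose P14 groups did not overlap. It stood at 1078, 916 and 953 normalized reads in P14 controls and 862, 804 and 913 in P14 mutants. The gap was small, 916 against 913, and the log2 difference of -0.19 (SE 0.10) did not pass (limma, adjusted p = 0.79). At P16 the groups overlapped, at 975, 1044 and 955 in control and 904, 956 and 1123 in dMF1/2.

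**Figure D3:**
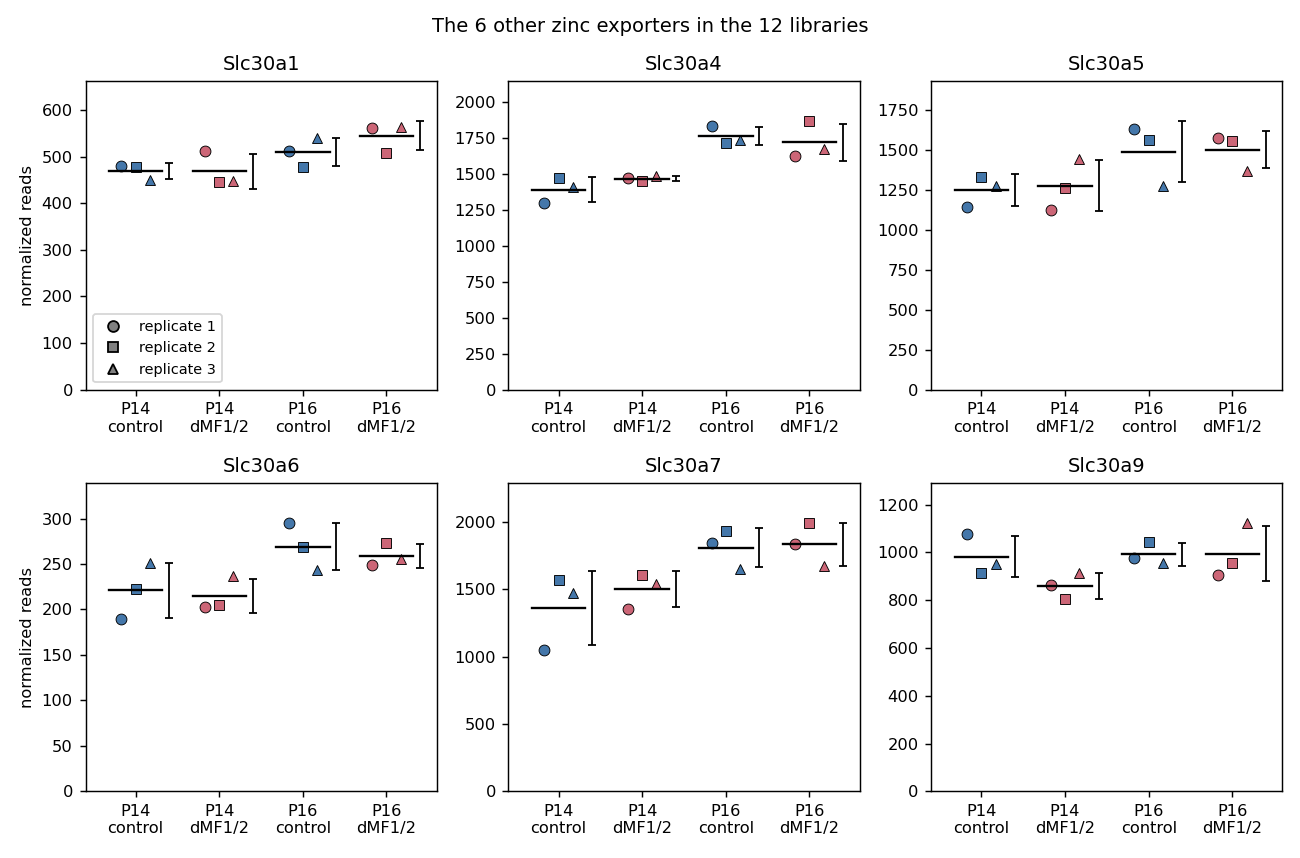
Normalized reads of the 6 exporters other than Slc30a2 in 3 libraries of each group (points, shape by replicate number), with the group mean as a bar and the SD beside it; each axis starts at 0 and has its own scale. Slc30a4 lies at 1294 to 1467 in P14 controls and 1711 to 1831 in P16 controls, and in all 6 genes the control and dMF1/2 libraries of P16 overlap.

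Levels of different members were ordered per kilobase of annotated exon. The length counts every annotated exon, 1246 bases for Mt1 (its whole annotated span), 588 for Mt2, 5482 for Slc30a4 and 11116 for Slc30a7. The order and its gaps depend on these lengths. Before division, the P16 control means were 2287 for Mt1 and 2561 for Mt2, and 1759 for Slc30a4 and 1808 for Slc30a7. In P16 controls the order was Mt2 (4355 ± 1428 normalized reads per kilobase), Mt1 (1836 ± 528), Slc30a4 (321 ± 11.5), Slc30a5 (204 ± 26.0), Slc30a7 (163 ± 13.1), Slc30a1 (97.2 ± 5.86), Slc30a6 (87.5 ± 8.42), Slc30a9 (80.1 ± 3.78) and Slc30a2 (59.4 ± 37.5). The last 4 overlapped with their neighbours in this order, and the others did not. In P16 mutants Slc30a2 was at 0.476 ± 0.160 normalized reads per kilobase, and the next lowest member, Slc30a9, at 80.3 ± 9.25. Per kilobase, Slc30a4 was thus the highest exporter in every group, at 253 ± 15.98 in P14 controls, 267 ± 3.25 in P14 mutants and 313 ± 23.3 in P16 mutants.

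Counted together, 0 of 9 members passed the test of genotype at P14, where 7 of 13334 genes (0.0525%) did. None reached an unadjusted p under 0.05, beside 7.32% of all genes, and DESeq2 (beside 1.55%) and edgeR also called 0. At P16, 1 of 9 members was called, Slc30a2, beside 582 of 13457 genes (4.32%), and since this contrast chose the members nothing is read from that count. By range, 1 of 9 members had groups that did not overlap at P14, beside 12.7% of genes, and 3 of 9 at P16, beside 24.5%. With age in control 1 of the 8 members other than Slc30a2 was called, Slc30a4, beside 14.5% of 13415 genes. With age in dMF1/2 0 of 8 were called, beside 5.8%, and 1 of 8 had an unadjusted p under 0.05, beside 22.8% of genes. DESeq2 called 0 there, beside 9.92%, and edgeR 0. For the interaction 0 of 8 were called, beside 0% of genes, and DESeq2 and edgeR called 0. None had an unadjusted p under 0.05 for the interaction, beside 4.83% of genes.

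The median log2 fold change of the 8 members other than Slc30a2 was 0.27 with age in control and 0.18 with age in dMF1/2, beside 0.01 for all genes in each. Between genotypes it was -0.02 at P14 and -0.02 at P16, beside 0.00 for all genes in each. The plot of fold changes by member shows Slc30a2 apart from the rest in every comparison.

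**Figure D4:**
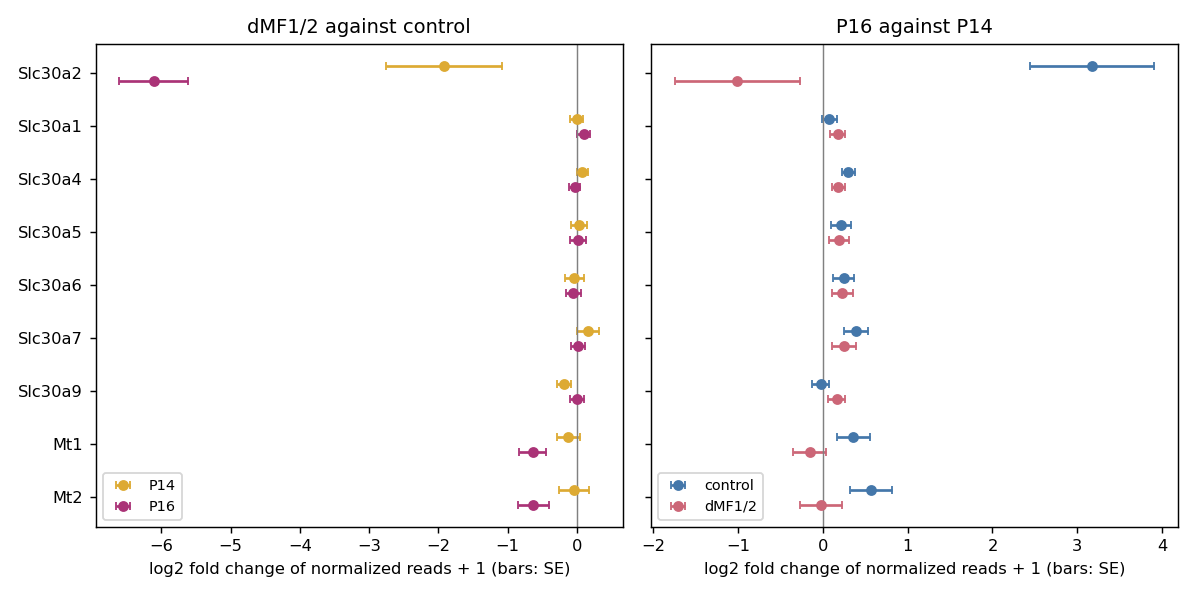
Log2 fold changes of the 9 members on log2(normalized reads + 1), dMF1/2 against control at P14 and P16 (left) and P16 against P14 in control and dMF1/2 (right), with the SE as bars. Slc30a2 reaches -6.11 at P16 and 3.17 with age in control, Mt1 and Mt2 lie at -0.64 and -0.63 at P16, and the other 6 exporters stay between -0.19 and 0.39.

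The zinc importers of the Slc39 (ZIP) family carry zinc into the cytosol. Of 14 listed, 13 were in both tables, 10 had enough reads to be tested at P14 and with age, and 11 at P16. No importer passed the test of genotype at either day (limma, beside 0.0525% of all genes at P14 and 4.32% at P16). At P14 and P16, 0 and 1 had an unadjusted p under 0.05, beside 7.32% and 19.0% of all genes. DESeq2 called 0 and 1, beside 1.55% and 8.33%, and edgeR called 0 at both. These counts lay near or below the background. With age in control 1 of 10 importers was called, beside 14.5% of all genes, so nothing about the family is read from it. It was Slc39a14, an importer of zinc and iron known to be induced in inflammation, which rose. It held 1099, 1356 and 1699 normalized reads in P14 controls, 2624, 2005 and 2138 in P16 controls, 988, 1310 and 1215 in P14 mutants and 1890, 1499 and 1574 in P16 mutants. All P16 libraries of a genotype were above all its P14 libraries, and all P16 mutants were below all P16 controls. Its log2 change was 0.68 (SE 0.17, limma, adjusted p = 0.023) in control and 0.46 (SE 0.17, adjusted p = 0.13) in dMF1/2, and the P16 difference between genotypes was -0.44 (SE 0.13, adjusted p = 0.10, or 0.0070 with the replicate block). The call in control was lost without P14 control replicate 1 (0.52, adjusted p = 0.084), P14 control replicate 2 (0.67, 0.060), P16 control replicate 1 (0.56, 0.090) or P16 control replicate 3 (0.71, 0.054), and with the control libraries fitted alone (0.68, 0.063).

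Among the zinc-dependent ectoenzymes, Alpl, the tissue-nonspecific alkaline phosphatase long used as a marker of DP cells, was higher in dMF1/2 at P16 and fell with age in control. It held 1455, 1139 and 688 normalized reads in P14 controls, 3767, 2443 and 2342 in P14 mutants, 223, 360 and 256 in P16 controls and 1254, 1364 and 1971 in P16 mutants. The mutants were above the controls at each day, and each genotype was lower at P16 than at P14. The log2 difference between genotypes was 1.41 (SE 0.30, limma, adjusted p = 0.26) at P14 and 2.45 (SE 0.22, adjusted p = 0.0033) at P16, and at P14 the fit with the replicate block called it (adjusted p = 0.0032), as did DESeq2 (0.00079). The log2 change with age was -1.97 (SE 0.29, adjusted p = 0.0027) in control and -0.94 (SE 0.29, adjusted p = 0.082) in dMF1/2. DESeq2 called the fall in dMF1/2 (adjusted p = 0.021), as did limma without P14 control replicate 3 (0.049), and edgeR did not (0.075). Alpl is itself 1 of the 7 listed DP markers, and most but not all of that list moved with it. At P16 6 of the 7 had a positive log2 difference, and Vcan was lower in dMF1/2 (means of 15015 against 17192 normalized reads). With age in control 6 of the 7 had a negative change, and Prom1 rose (means of 147 to 207 rescaled reads). At P16 limma called 2 of the 7 higher in dMF1/2 (Alpl and Prom1, beside 4.32% of all genes), DESeq2 called 4 (beside 8.33%) and the replicate block 6 (beside 10.4%), and the median log2 difference of the 7 was 1.01. With age in control 4 of the 7 were called lower (Corin, Lef1, Alpl and Sox18, beside 14.5%), and the median log2 change was -1.06. The part of the DP markers in the difference of Alpl was not tested. The 4 other ectoenzymes listed, Enpp1, Enpp2, Enpp3 and Nt5e, were not called in any comparison.

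In the whole list of 37 other zinc, iron and copper genes, 26 could be tested at P14 and with age and 28 at P16. Called were 0 of 26 at P14 (beside 0.0525% of all genes), 1 of 28 at P16 (Alpl, beside 4.32%), 3 of 26 with age in control (Slc39a14 higher, Alpl and Ccs lower, beside 14.5%), 3 of 26 with age in dMF1/2 (Atp7a higher, Fth1 and Ccs lower, beside 5.8%) and 0 for the interaction (beside 0%). The counts at P16 and with age in control lay near or below the background. At P14, 2 of 26 had an unadjusted p under 0.05, beside 7.32% of all genes, DESeq2 called 1, beside 1.55%, and edgeR 0. For the interaction 1 of 26 had an unadjusted p under 0.05, beside 4.83%, and DESeq2 and edgeR called 0. At P16 DESeq2 and the fit with the replicate block each called 3 of 28, beside 8.33% and 10.4% of all genes, and with age in dMF1/2 DESeq2 called 5 of 26, beside 9.92%, and the fit of the dMF1/2 libraries alone called 1. The median log2 fold change of the list was 0.00 at each day between genotypes, 0.07 with age in control and 0.08 with age in dMF1/2. Ccs, the copper chaperone of superoxide dismutase, fell with age by 0.68 (SE 0.10, limma, adjusted p = 0.0031) on the log2 scale in control and by 0.71 (SE 0.10, adjusted p = 0.0028) in dMF1/2. Atp7a, a copper exporter, changed by 0.38 (SE 0.08, adjusted p = 0.014) and Fth1, the ferritin heavy chain, by -0.45 (SE 0.11, adjusted p = 0.036) in dMF1/2. With the same samples of dMF1/2 left out in turn, Atp7a lost its call without P14 replicate 2 (adjusted p = 0.063), P16 replicate 1 (0.068) or P16 replicate 3 (0.060), and Fth1 without any 1 of P14 replicates 1, 2 and 3 and P16 replicates 1 and 3 (0.081 to 0.15) or without P16 control replicate 2 or 3 (0.050 and 0.052). With the dMF1/2 libraries fitted alone, Atp7a (0.057) and Fth1 (0.063) were not called and Ccs was.

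Genes known to be induced by glucocorticoids or by oxidative stress, both of which also induce metallothioneins, were followed as separate lists. Some of the immediate early and heat shock genes that rise when tissue is dissociated moved with them. With age in control 4 of those 10 rose (Dnajb1, Atf3, Hspa1a and Hspa1b, the last pair near-identical copies whose reads may be divided uncertainly, beside 14.5% of all genes), with a median log2 change of 0.46. With age in dMF1/2 9 of the 10 had a positive change, the median was 0.31, and 0 were called (beside 5.8%). There 4 had an unadjusted p under 0.05, beside 22.8% of all genes, DESeq2 called 3, beside 9.92%, and edgeR 0. At P16 1 of the 10 was called between genotypes, Atf3, lower in dMF1/2 (beside 4.32%), and the replicate block called 3 (beside 10.4%). Of the 7 glucocorticoid-induced genes, 5 rose with age in control, Fkbp5 by 1.69 (SE 0.35), Zbtb16 by 1.69 (SE 0.43), Sgk1 by 0.999 (SE 0.26), Klf9 by 0.91 (SE 0.17) and Tsc22d3 by 0.86 (SE 0.19) on the log2 scale (limma, adjusted p from 0.0082 to 0.027), and none fell, beside 14.5% of all genes called in either direction. In dMF1/2 0 of 7 were called with age, beside 5.8%, and 4 had an unadjusted p under 0.05, beside 22.8% of all genes. DESeq2 called 1 there, beside 9.92%, and edgeR 0. Of the 7, 6 had a positive change in dMF1/2, and the median log2 change was 0.44, against 0.91 in control. At P16 1 of 7 was called between genotypes, beside 4.32%, Fkbp5, a cochaperone of the glucocorticoid receptor. It held 822, 978 and 895 normalized reads in P16 controls and 424, 407 and 474 in P16 mutants, a log2 difference of -1.04 (SE 0.10, adjusted p = 0.0040). The fit with the replicate block called 5 of the 7 at P16, beside 10.4% of all genes. The call of Fkbp5 was lost when all 12 libraries were fitted together (-1.05, adjusted p = 0.12). With age in control, the call of Sgk1 was lost without P14 control replicate 1 (0.67, 0.068) or P16 control replicate 1 (0.97, 0.081) or 3 (0.95, 0.078). That of Zbtb16 was lost without P14 control replicate 1 (1.55, 0.090) or 2 (1.27, 0.084) or P16 control replicate 1 (1.73, 0.072) or 2 (1.41, 0.075). The changes themselves stayed positive. With the control libraries fitted alone, Klf9 was still called and the other 4 were not (adjusted p from 0.054 to 0.080).

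Of the 7 oxidative stress genes, 4 rose with age in control, Nqo1 by 1.05 (SE 0.29), Hmox1 by 0.97 (SE 0.25), Txnrd1 by 0.47 (SE 0.12) and Gclc by 0.29 (SE 0.08) on the log2 scale (limma, adjusted p from 0.025 to 0.038), and none fell, beside 14.5% of all genes called in either direction. Each of the 4 lost its call in 3 or more fits that left out a library, P14 control replicate 1 and P16 control replicate 1 among them, with an adjusted p of up to 0.13, and all 4 with the control libraries fitted alone (0.057 to 0.10). With the replicate block, Nqo1 was no longer called (adjusted p = 0.0502). At P16 1 of 7 was called between genotypes, beside 4.32%, Txnrd1, the cytosolic thioredoxin reductase, at -0.62 (SE 0.14, adjusted p = 0.046), and it kept the call only without P16 control replicate 2 among the fits with a library left out (adjusted p of up to 0.15 in the others). The fit with the replicate block called 3 of the 7 at P16, beside 10.4%. In dMF1/2 0 of 7 were called with age, beside 5.8%, and 2 had an unadjusted p under 0.05, beside 22.8% of all genes. DESeq2 called 0 there, beside 9.92%, and edgeR 0.

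At P16 the summed levels of both lists did not overlap between genotypes, and neither did Mt1 and Mt2, beside 24.5% of all genes. The 7 glucocorticoid-induced genes summed to 63090 to 79674 normalized reads in controls and 51069 to 61333 in mutants. Most of that sum was Dusp1, with means of 44505 and 35406. Taken singly, Dusp1, Klf9, Tsc22d3 and Zbtb16 overlapped between genotypes at P16, and Fkbp5, Sgk1 and Per1 did not. The 7 oxidative stress genes summed to 2849 to 3469 in controls and 2331 to 2707 in mutants. Singly, Txnrd1, Nqo1 and Gclc did not overlap, and the others of that list did. The 10 dissociation genes summed to 281902 to 396010 in P16 controls and 246239 to 278602 in P16 mutants. At P14 all 3 sums overlapped between genotypes. The part of the dissociation genes in the changes of the other lists, and of all 3 lists in the difference of Mt1 and Mt2, was not tested.

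**Figure D5:**
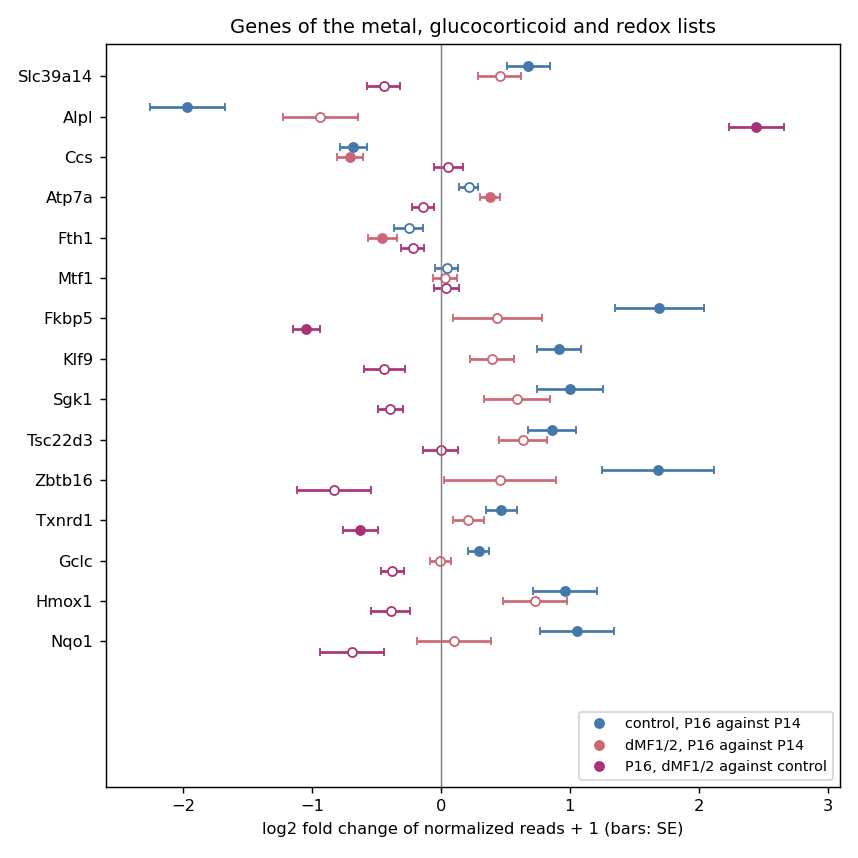
Log2 fold changes with SE bars of the genes named from the metal, glucocorticoid and oxidative stress lists, with Mtf1, for P16 against P14 in control and in dMF1/2 and for dMF1/2 against control at P16; filled points passed the test and open points did not. Alpl lies at 2.45 between genotypes at P16 and -1.97 with age in control, and Mtf1 stays between 0.03 and 0.04.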

How the data were processed

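Reads of 61 bases were trimmed with Trimmomatic, mapped with TopHat 2 to mm10 and counted per Ensembl gene (GRCm38.p4) with HTSeq by the authors, after depletion of ribosomal RNA. The deposited tables, 1 per day, hold a signal per gene and library, the count divided by the authors' DESeq2 size factor. All signal values were whole multiples of 1 constant per library (tolerance 0.001), so whole reads were recovered for 100% of genes. The authors' own comparison columns, a log2 fold change with its standard error, a Wald score, a p-value and an adjusted p-value, were deposited beside them and were not used.

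Genes with a mean of at least 10 were tested with limma 3.58.1 (R 4.3.3, trend) on log2(value + 1), within each day for genotype, and over all 12 libraries, after rescaling the recovered reads by the median of ratios, for age and the interaction. P-values were adjusted by Benjamini-Hochberg over all genes, with a threshold of 0.05, and the fit was tested on simulated data. Fold changes on this scale understate those of low genes. Alternatives were DESeq2 1.42.0, edgeR 4.0.16, TMM scaling, other filters and pseudocounts, a replicate block and leaving out libraries. The fit without both P14 libraries numbered 1 was added after seeing the data. Same-numbered libraries within a day deviated together (correlations of 0.30 to 0.59 at P14 and 0.26 to 0.31 at P16), so the numbers, which come from the labels, were taken to pair them. Genes named from the lists were those past the threshold, at most 6 per list and comparison, with Mtf1 and Alpl always named. Likeness was ranked by Pearson correlation and the first 5 genes were named. Members and lists were chosen with earlier results of these data known. Exon lengths and overlaps are from GENCODE M21 and promoters from RefSeq (GRCm38.p6). Proteins were not analysed here.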

Additional observations from a re-analysis of the deposited data

Results flagged for a closer look

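On the scale shared by the 12 libraries, the P16 libraries of Slc30a2 lay on opposite sides of the P14 libraries in the 2 genotypes. The P16 controls, at 348, 85.6 and 193 rescaled reads, all lay above the P14 controls, at 26.4, 4.35 and 53.4, whereas the P16 dMF1/2 libraries, at 2.11, 1.83 and 1.04, all lay below the P14 dMF1/2 libraries, at 4.26, 3.23 and 5.61. The difference between the changes was -4.19 on the log2 scale. It was not tested, since Slc30a2 was chosen for its loss in the mutant at P16. The dMF1/2 libraries held 1 to 5 reads each, 13 in all at P14 and 5 at P16.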

How the results depend on the processing

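Of the members, 0 were called at P14 under every alternative run, and the same held with age in dMF1/2 and for the interaction among the 8 other than Slc30a2. At P16 the count of members called was 0 when at least 10 reads were required in every library, which removes Slc30a2, 3 with DESeq2, 2 with the replicate block and 1 to 3 with a library left out. These P16 counts come from the contrast that chose the genes and are a description, not a test. With age in control the count among the 8 members other than Slc30a2 was 0 when the control libraries were fitted alone and without P14 replicate 1 of both genotypes, and 0 to 2 with a library left out. The list of other metal genes gave 1 call at P14 with DESeq2 and 1 with the replicate block, 3 and 3 at P16 (1 to 2 with a library left out), and with age in dMF1/2 5 with DESeq2, 1 with those libraries fitted alone and 1 to 4 with a library left out. Beside the calls given with the replicate block in the report (Slc39a14 and Fgfr1 at P16, Alpl at P14, Nqo1 with age in control) and that of Slc30a10 below, the block added at P16 Zbtb16, Klf9, Sgk1, Gclc and Hmox1, and it changed no other call of a member outside the P16 difference or of a gene named from the metal, glucocorticoid and oxidative stress lists. The causes were not tested.

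Some small log2 fold changes, none of them called, changed sign with a library left out. At P14 the ranges were -0.071 to 0.028 for Slc30a1, -0.064 to 0.11 for Slc30a5, -0.14 to 0.056 for Slc30a6, -0.021 to 0.27 for Slc30a7, -0.30 to 0.053 for Mt1, -0.30 to 0.15 for Mt2 and -0.013 to 0.096 for Mtf1. At P16, where the genes' differences are a description, the ranges were -0.096 to 0.0043 for Slc30a4, -0.092 to 0.087 for Slc30a5, -0.12 to 0.017 for Slc30a6, -0.048 to 0.081 for Slc30a7 and -0.092 to 0.064 for Slc30a9. Mtf1 ranged from -0.012 to 0.11 at P16, from -0.020 to 0.078 with age in control, from -0.024 to 0.094 with age in dMF1/2 and from -0.068 to 0.051 for the interaction. With age, Slc30a9 in control ranged from -0.072 to 0.044 and Mt2 in dMF1/2 from -0.071 to 0.038. Without P14 replicate 1 of both genotypes, Slc30a9 in control was 0.044 and Mtf1 in dMF1/2 was -0.010.

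Each dMF1/2 library held 1 to 5 reads of Slc30a2, so counting error limits the precision of values within that group.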

Other observations

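Slc30a10, a member of the Slc30 family known chiefly as a manganese exporter, was named after its values were seen. It held 3.73, 2.14 and 1.95 normalized reads in P14 controls and 23.5, 9.60 and 5.55 in P14 mutants. At P16 it held 0, 4.15 and 0 in controls and 4.32, 26.1 and 27.5 in mutants. The mutant libraries were above the control libraries at each day, but at P16 the nearest pair, at 4.15 and 4.32, had 4 reads each, so their order comes from the size factors alone. Its mean was under 10 at P14, so it was tested only at P16, where the log2 difference of 3.21 (SE 0.93) did not pass (limma, adjusted p = 0.10). DESeq2 called it at P16 (adjusted p = 0.0098), and so did limma with the replicate block (0.035) and without P16 control replicate 2 (0.048), whereas without control replicate 1 or 3 the adjusted p was 0.21 and 0.26. The fit with edgeR gave an adjusted p of 0.089. With the pseudocount moved to 10, the log2 difference was 1.26. Slc30a3 and Tmem163 had group means of 0.9 to 5.4 normalized reads, and Slc30a8, present in the table of P16, of 1.0 to 3.3.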
